A study of Mus musculus with 18 samples.

Results

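Imprinted genes are expressed mainly from the copy inherited from 1 parent, and 10 of them were examined here through the open chromatin around them: H19, Igf2, Snrpn, Peg3, Mest, Igf2r, Airn, Plagl1, Kcnq1ot1 and Impact. Their peaks were chosen by position alone, as every merged ATAC-seq peak over the gene or within 50 kb of either annotated end. This gave 125 distinct peaks of 166066 in the list, 11 of them in the windows of 2 members, over 8 separate regions of 1.74 Mb in all. ATAC-seq uses a transposase to insert sequencing adapters into accessible DNA, and a peak is a stretch where such insertions were called enriched. The cells were mouse embryonic stem cells of a line named dTKO, in which Suv39h1 and Setdb1 are floxed (fl/fl) and Suv39h2 is deleted (-/-), a state that all 18 libraries share. Every library is labelled as treated with auxin (100 µg/ml) plus dTAG13 (0.5 µM), a pair of agents that lead proteins with matching tags to degradation. Cells were taken at 0, 3, 6, 12, 24 and 48 h with 3 biological repeats each. The labels do not say which proteins carry the tags or whether the line is 1 clone. The study's question is where chromatin opens after loss of H3K9 methyltransferases, with 0 h as the reference. At 0 h the labels list the same treatment.

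The deposited list pools all libraries and holds positions only. It has no count, height, library or time, so the spread between replicates and the depth are unknown, and opening or closing with time at these genes was not analysed here. Parental copies are not told apart either, and a peak does not show whether 1 or both copies were accessible. For the labelled cell type, all 8 stem cell markers examined had a peak within 500 bp of an annotated gene end, among them Pou5f1, Nanog and Sox2, where 71.4% of all protein-coding genes did. The same held for 3 of 6 fibroblast, 2 of 3 primitive endoderm, 3 of 3 trophoblast and 0 of 3 blood markers. With so common a feature, these short lists do not separate stem cells from the other types. A peak at a gene end is not a level of expression, and the part that other cells may have in the list was not tested.

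Each imprinted domain is governed by a control region whose DNA is methylated on 1 parental copy, a mark set in the germ line. The zinc finger protein ZFP57 binds the methylated copy and, with TRIM28, recruits SETDB1, which places H3K9 trimethylation there. Most such regions in the mouse carry maternal methylation and coincide with a promoter: that of Airn inside Igf2r, that of Kcnq1ot1 inside Kcnq1, and those of Snrpn, Peg3, Mest and Plagl1. These 6 are called control promoters below, an assignment made from general knowledge and not from the files. The control region of H19 and Igf2 carries paternal methylation and lies just upstream of H19, where the insulator protein CTCF binds the unmethylated maternal copy.

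The control promoters are shown first because each of their starts lay inside a peak, together with the Igf2r promoter and the outermost Snrpn promoter as partners that are not control regions. Sequences come from the RefSeq promoter table of GRCm38.p6, which matched 8 of the 10 members (no entry for H19 and Impact). Each reads 5′ to 3′ along the gene's own strand. Capitals mark TGCCGC or its reverse complement GCGGCA, the hexamer that ZFP57 is known to recognise. For the noncoding RNAs the run holds 250 bases before the start and the first 50 of the transcript, and for the protein-coding genes only the bases before the start, except that a hexamer across the Snrpn start is kept whole. For Peg3 it holds the 96 bases between the annotated ends of Peg3 and its divergent neighbour Usp29.
Airn, chr17:12741061-12741360, plus strand: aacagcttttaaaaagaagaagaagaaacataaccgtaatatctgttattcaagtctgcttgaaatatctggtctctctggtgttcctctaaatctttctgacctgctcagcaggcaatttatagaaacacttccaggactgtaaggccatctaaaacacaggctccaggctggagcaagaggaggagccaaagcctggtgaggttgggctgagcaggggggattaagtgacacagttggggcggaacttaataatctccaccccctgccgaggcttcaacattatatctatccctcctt
Kcnq1ot1, chr7:143296498-143296797, minus strand: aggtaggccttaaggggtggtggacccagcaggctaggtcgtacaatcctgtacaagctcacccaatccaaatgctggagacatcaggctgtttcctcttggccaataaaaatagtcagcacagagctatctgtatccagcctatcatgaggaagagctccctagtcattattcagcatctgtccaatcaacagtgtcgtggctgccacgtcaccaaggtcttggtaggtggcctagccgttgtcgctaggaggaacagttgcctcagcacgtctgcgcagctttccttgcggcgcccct
Snrpn inner promoter, chr7:60005196-60005449, minus strand: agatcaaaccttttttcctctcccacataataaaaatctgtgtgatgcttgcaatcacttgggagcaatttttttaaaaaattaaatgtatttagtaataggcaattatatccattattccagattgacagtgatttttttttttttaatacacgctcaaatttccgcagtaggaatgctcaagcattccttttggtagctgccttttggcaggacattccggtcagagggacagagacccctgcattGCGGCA
Mest inner promoter, chr6:30737800-30738049, plus strand: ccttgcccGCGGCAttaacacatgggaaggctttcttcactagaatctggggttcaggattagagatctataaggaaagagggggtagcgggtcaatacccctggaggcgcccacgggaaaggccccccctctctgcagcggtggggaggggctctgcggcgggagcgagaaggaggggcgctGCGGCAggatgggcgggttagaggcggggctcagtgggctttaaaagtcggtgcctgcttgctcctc
Plagl1, chr10:13090582-13090831, plus strand: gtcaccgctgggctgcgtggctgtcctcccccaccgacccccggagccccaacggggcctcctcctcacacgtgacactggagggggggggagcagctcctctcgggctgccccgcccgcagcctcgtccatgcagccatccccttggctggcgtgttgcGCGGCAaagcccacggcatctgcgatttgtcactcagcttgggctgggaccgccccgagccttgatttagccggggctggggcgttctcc
Peg3 to Usp29, chr7:6730463-6730558, minus strand: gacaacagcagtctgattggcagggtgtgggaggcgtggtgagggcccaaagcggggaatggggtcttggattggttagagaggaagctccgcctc
Igf2r, chr17:12769707-12769956, minus strand: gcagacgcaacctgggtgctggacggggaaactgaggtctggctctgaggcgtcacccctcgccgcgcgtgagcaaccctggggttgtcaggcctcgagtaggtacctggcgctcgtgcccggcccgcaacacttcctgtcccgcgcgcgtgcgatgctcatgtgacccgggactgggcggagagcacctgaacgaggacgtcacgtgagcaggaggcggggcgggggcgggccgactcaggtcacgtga
Snrpn outer promoter, chr7:60450178-60450427, minus strand: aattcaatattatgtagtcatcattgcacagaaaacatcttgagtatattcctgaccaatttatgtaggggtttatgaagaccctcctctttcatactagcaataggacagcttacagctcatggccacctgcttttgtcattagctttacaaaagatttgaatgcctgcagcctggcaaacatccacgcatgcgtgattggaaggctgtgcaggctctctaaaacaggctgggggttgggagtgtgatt

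Over whole 300-base windows, 4 of the 8 members with an entry held the hexamer at 1 or more starts, against 13.1% of all 27025 genes in the table, but these 8 genes have up to 4 starts each. Counted by start, 5 of 16 (31.2%) held it, 2 of the 5 being the Mest starts 3 bp apart, against 11.6% of all 32817 promoters and 24.3% of those rich in CpG (defined below). Among control promoters it was found in Mest (2 copies), Snrpn (1 copy across the start) and Plagl1 (1 copy), and not in the windows of Airn, Kcnq1ot1 or Peg3. Igf2 was the other member, with 1 copy behind its start 2. A match of letters is not a bound site, and a window without one says nothing of the DNA beside it.

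Of the 3 noncoding RNAs, Airn and Kcnq1ot1 had their starts inside a peak, and H19 had a peak just outside its annotated end. Airn, the RNA that silences Igf2r on the paternal copy (chromosome 17, 12741311 to 12859884), starts 28.4 kb inside Igf2r, and its start lay in a peak of 1965 bp (12740974 to 12742938). The peak reached 337 bp before the start and 1627 bp behind it. It stood alone on its lower-coordinate side, toward the end of Igf2r, where the next peak was 50.99 kb away. On the other side the nearest was 6.67 kb away.

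Kcnq1ot1 is the paternally expressed RNA that silences its neighbours within Kcnq1 and beyond (chromosome 7, 143213111 to 143296547). Its start lies 189.7 kb from the lower and 130.5 kb from the higher end of Kcnq1, a potassium channel gene, and was covered by a peak of 1611 bp (143295546 to 143297156), 609 bp before and 1001 bp behind the start. Going upstream, no other peak followed for 58.55 kb. Only 5 peaks lay in the whole 183.4 kb window, all of them overlapping the RNA gene, which put Kcnq1ot1 lowest of the members at 2.73 peaks per 100 kb. The lower end of Kcnq1 had a separate peak of 1753 bp.

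H19 is a maternally expressed RNA transcribed toward lower coordinates (chromosome 7, 142575530 to 142578146). No peak lay over its body, the only member of which this was true. A narrow peak of 456 bp (142578161 to 142578616) began 0.015 kb upstream of its annotated end, and a far wider peak of 2032 bp (142580060 to 142582091) followed between 1.914 and 3.945 kb upstream. This is the stretch just upstream of H19 in which the control region is known to lie, although the files mark no control region. Only 2685 of the 165744 peaks on assembled chromosomes were wider than it. The next peak toward Igf2 was 28.47 kb away, and the whole 72.6 kb between H19 and Igf2 held 4 peak midpoints.

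**Figure D1:**
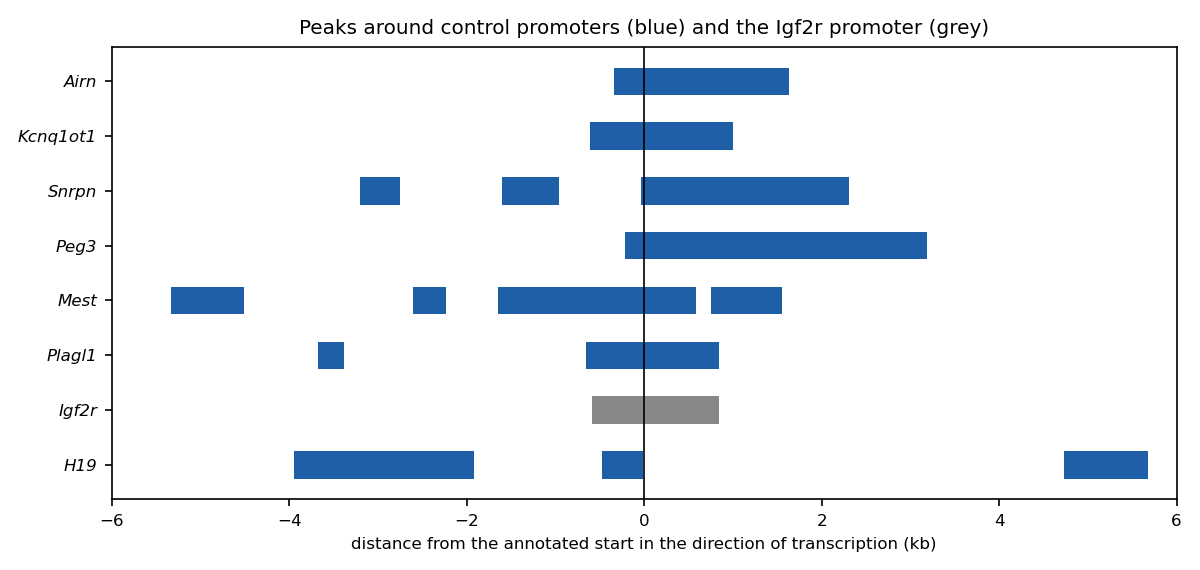
Peaks drawn to scale within 6 kb of the annotated start (vertical line) of the 6 control promoters, Igf2r and H19, in the direction of transcription (x axis, kb; the direction of H19 is from general knowledge). A peak spans the start in every row except H19, whose wide peak of 2032 bp lies 1.914 to 3.945 kb upstream.

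Among protein-coding members, the control starts of Snrpn, Peg3, Mest and Plagl1 were inside peaks of 1499 to 3395 bp. Snrpn, which encodes a splicing protein (chromosome 7, 59982495 to 60450177), has 4 annotated starts, and the innermost, shared with Snurf, is its control promoter. That start lay inside a peak of 2337 bp (60002894 to 60005230), which ran 2305 bp into the gene and only 31 bp before the start. The outermost start, 445 kb further upstream, had its nearest peak 31.65 kb away, and the next one 14977 bp away. Start 3 was 58 bp from a peak of 205 bp, close to the narrowest in the list (198 bp). The 3 outer promoters resemble each other, with 79.7 to 81.4% identical positions in pairwise alignment, and share 50.6 to 52.9% with the inner one. How uniquely reads can be placed there was not tested.

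The 22.7 kb of Snrpn shared with Snurf held 5 peak midpoints (22.02 per 100 kb), among them that of the control promoter peak at its edge. The 445 kb beyond it held 21 (4.72 per 100 kb). A gap of 107.3 kb without a peak (60047921 to 60155201) lay in the outer part, longer than 98.4% of gaps between neighbouring peaks in the genome.

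Peg3, a paternally expressed zinc finger gene (chromosome 7, 6703892 to 6730462), had the widest peak of all members, 3395 bp (6727237 to 6730631). Only 76 peaks of 165744 were wider. The peak covered the starts of both Peg3 and Usp29, 212 bp before the Peg3 start and 3182 bp into the gene, and was the only peak over the Peg3 body. Neighbouring peaks were 24.98 and 20.22 kb away. Usp29, a ubiquitin protease gene transcribed away from Peg3, lay mostly to the other side of it, with 48 bp of the peak behind its start.

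Mest, which encodes a hydrolase-like protein (chromosome 6, 30733506 to 30748466), has an outer start and 2 inner starts that lie 3 bp apart. The outer start lay in a peak of 825 bp and the inner ones in 1 of 2223 bp (30736407 to 30738629). The inner peak extended 1643 bp before the start and 579 bp behind it, the opposite balance to the other control promoters. It was followed after 0.18 kb by a further peak of 794 bp, and 4 of the 7 peaks of the window lay over the gene.

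Plagl1, a zinc finger gene of growth control (chromosome 10, 13090832 to 13131694), shares its start region with the noncoding RNA Hymai. A peak of 1499 bp (13090175 to 13091673) covered both starts, the narrowest of the 6 control promoters. A wider peak of 1672 bp lay inside the gene (13107421 to 13109092), away from any annotated start in the table, and 8 of the 12 peaks of the window were over the gene body.

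Impact, which encodes a regulator of translation (chromosome 18, 12954690 to 12992950), had no peak within 500 bp of either end. Its lower end was 0.68 kb from a peak of 1001 bp (12955370 to 12956370), and the widest peak over the gene, 1610 bp (12972955 to 12974564), lay 18.3 to 19.9 kb inside it. The control region of Impact is known to lie at its CpG island, whose place the files do not give, so the peaks are described by position only. With 16 peaks in 138.3 kb, or 11.57 per 100 kb, Impact had the densest window of the members, but its peaks were narrow, with a median of 455.5 bp.

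Of the partners that the control regions silence, Igf2r, a receptor that removes the growth factor IGF2 (chromosome 17, 12682406 to 12769706), had a peak of 1430 bp over its start. Where Igf2r and Airn overlap, over 28.4 kb from the Airn start to the Igf2r start, lay 5 peak midpoints (17.61 per 100 kb). The rest of Igf2r held 2 (3.4 per 100 kb) and the rest of Airn 9 (9.98 per 100 kb). The 5 include the peaks over the Airn and Igf2r starts, which bound this short stretch and so raise its rate. Igf2, the growth factor gene itself (chromosome 7, 142650768 to 142666816), has 4 annotated starts and none of them lay inside a peak. A peak of 2369 bp (142658857 to 142661225), wider than all but 1032 peaks, lay between starts 2 and 3, counted from the outermost, 46 bp from one and 53 bp from the other. The lower end of the antisense RNA Igf2os lay inside it. The outermost start was 1175 bp and the innermost 1361 bp from the nearest peak.

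**Figure D2:**
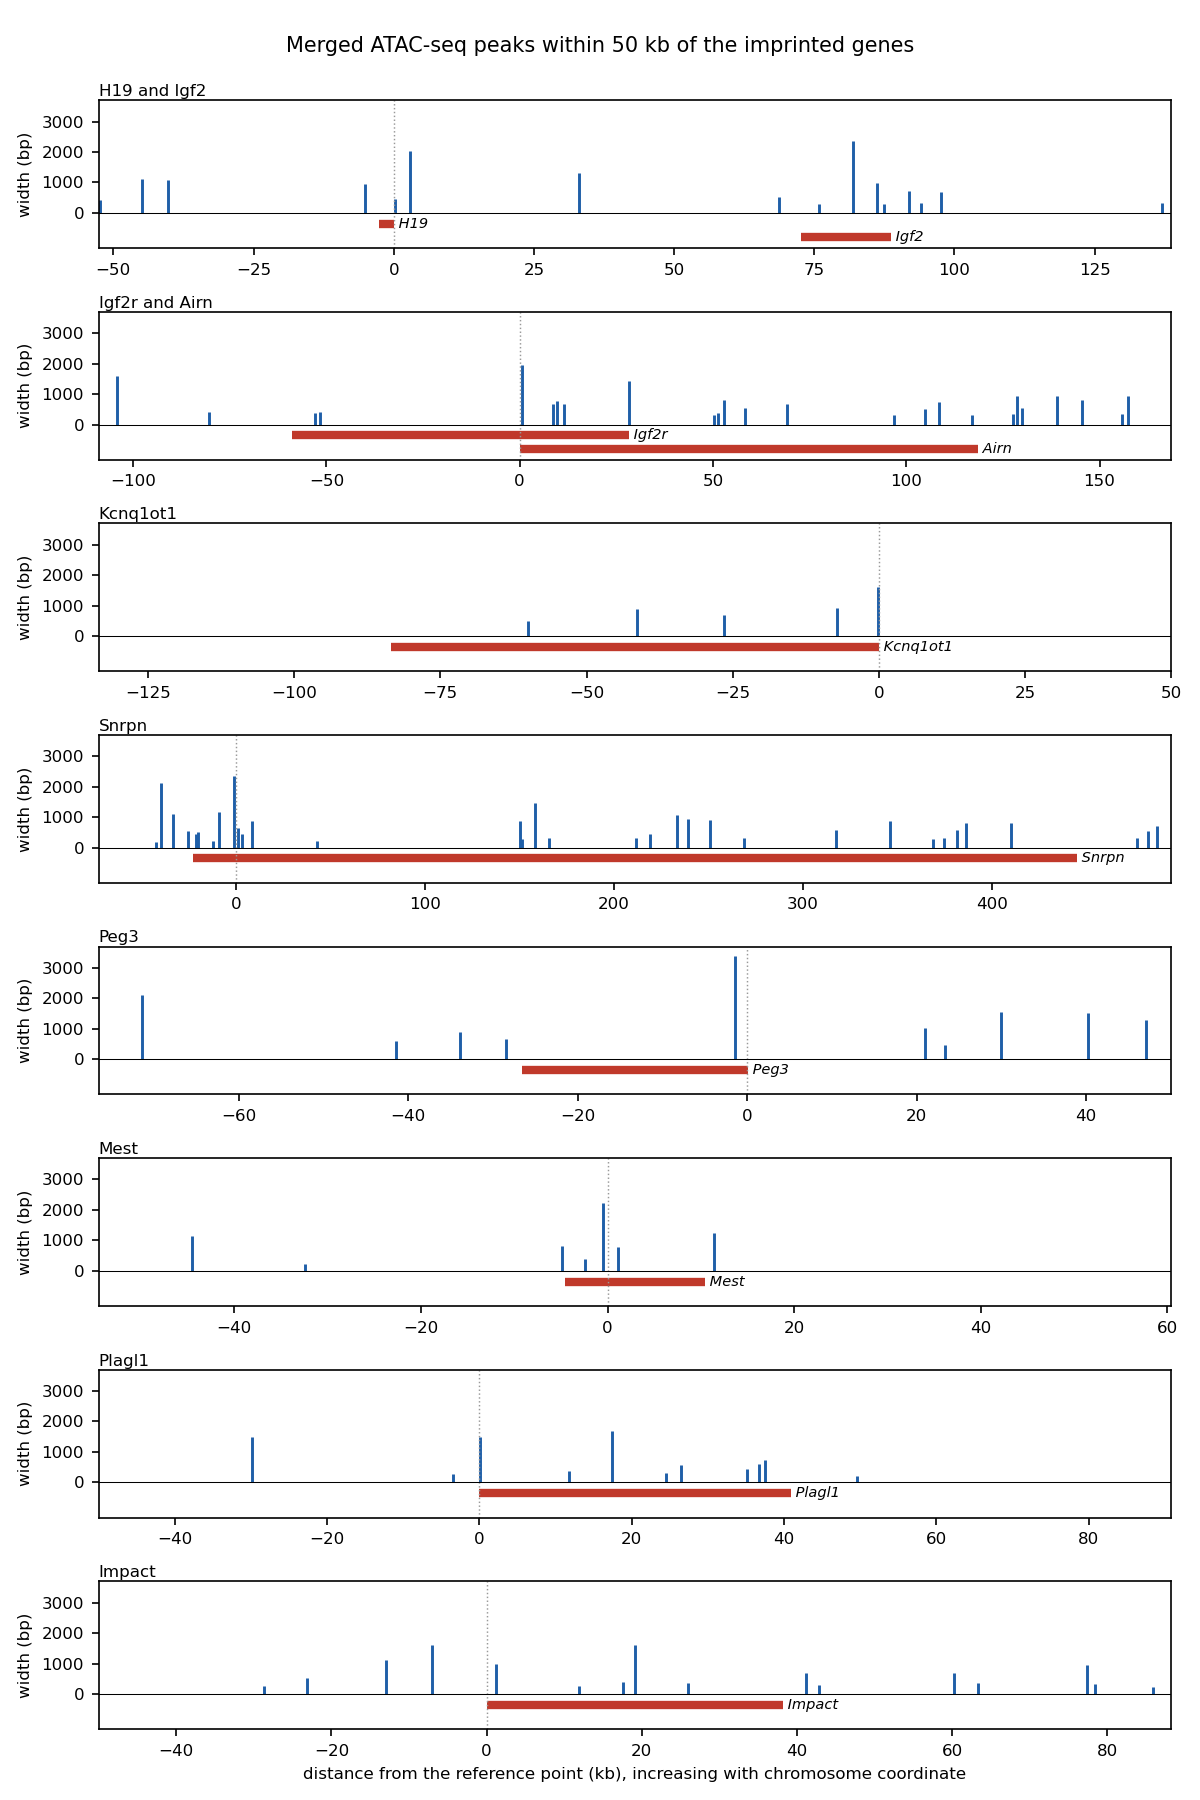
Each vertical line is a merged peak, placed by its midpoint (x axis, kb from the control promoter's start, or from the H19 end or the lower Impact end) with its width as height (y axis, bp). Red bars are member genes. The tallest line in the Peg3 panel is the 3395 bp peak, and the Kcnq1ot1 panel holds 5 peaks.

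Set against all annotated starts, the control promoters were covered throughout and their peaks lay in the wider part of the range. All 7 control starts (6 genes, Mest having 2) were inside a peak, against 52.8% of 32817 starts in the table, while 2 of the 9 other member starts were, those of Igf2r and the outer Mest start. Within 500 bp of a peak were 5 of those 9, most of which belong to Igf2 and Snrpn. The control starts were set apart with the data already seen, so their coverage is a description only. The control regions of H19 and Impact are not in this set. The 6 control promoter peaks were 1499 to 3395 bp wide, each above the median of 1313 bp for peaks over a start. Only 53 starts in the genome lay in a wider peak than Peg3 and 816 in a wider one than Snrpn, but 6004 in a wider one than Plagl1. The Igf2r peak (1430 bp) was also above the median of 1313 bp, at the 59.6th percentile. This is not far below the control peaks of Plagl1 (65.3rd) and Kcnq1ot1 (72.4th). The peak of the outer Mest start was at the 13.5th percentile. At 5 of the 6 control promoters more of the peak lay behind the start than before it, a property of 57.3% of all starts inside peaks.

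**Figure D3:**
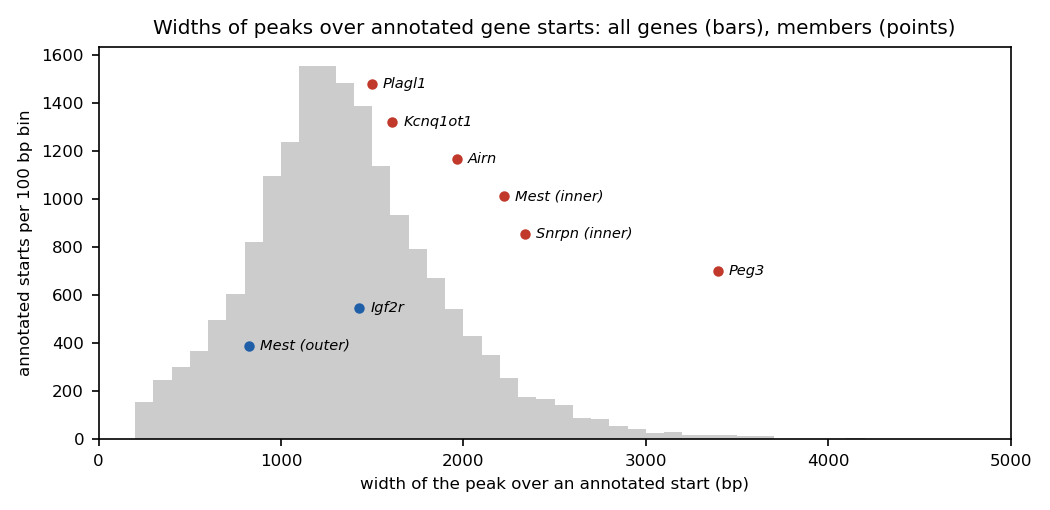
Grey bars give the number of annotated starts by the width of the peak over them (bp, 100 bp bins). Points are control promoters (red) and other member starts (blue), and their height carries no value. All 6 red points lie to the right of the median of 1313 bp, as does the blue point of Igf2r.

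The share of starts inside a peak was higher where CpG was denser, and member starts were found on both sides of that pattern. CpG observed/expected is the number of CpG dinucleotides relative to that expected from the C and G content, and starts at 0.6 or more are called CpG-rich. Of CpG-rich starts 95.9% were inside a peak, and of the others 28.7%. Among members, 6 of the 11 starts under 0.6 were inside a peak. Except for the outer Mest start (0.33), these 6 are control starts, set apart with the data already seen. Their share is therefore a description only. The inner Mest starts share a peak and fall on either side of 0.6. Airn had a ratio of only 0.19, with 3 CpG in its window, Kcnq1ot1 0.42, Peg3 0.46, inner Snrpn 0.57 and inner Mest 0.59 or 0.61. In the bin of 0.1 to 0.2 that holds Airn, 14.4% of all starts were inside a peak. The window ends 50 bases behind the start, whereas the Airn peak runs 1627 bp beyond it, so CpG content there was not read.

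Conversely, 3 of the 5 CpG-rich member starts were inside a peak, those of Igf2r (0.91), Plagl1 (0.70) and Mest start 3 (0.61). The others were Igf2 starts 2 and 3 (0.79 and 0.90), each just outside the 2369 bp peak. Of all CpG-rich starts, 0.843% lay outside a peak but within 100 bp of one. The outer starts of Snrpn and the outermost of Igf2 were CpG-poor (0.10 to 0.26) and outside peaks.

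**Figure D4:**
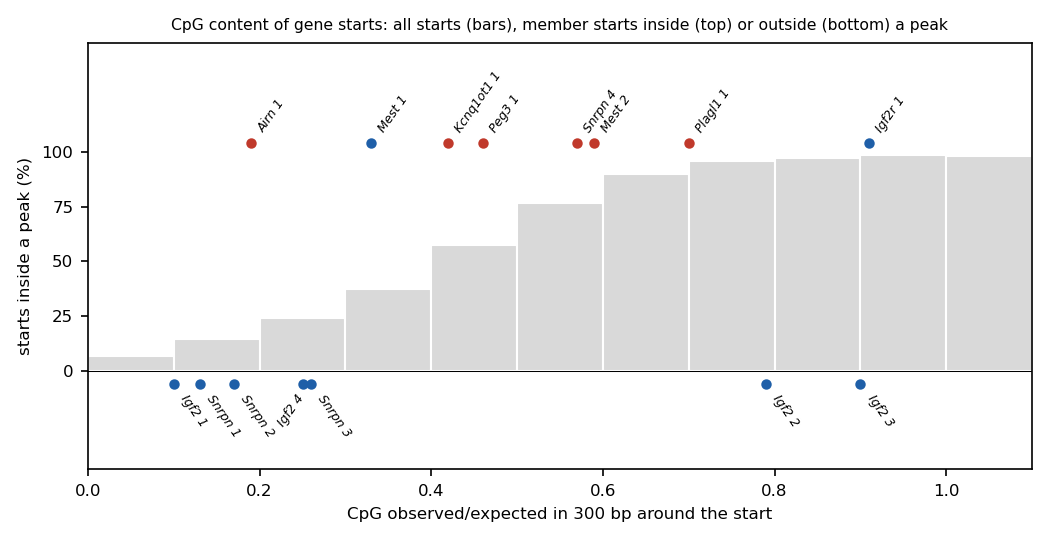
Bars give the share of all annotated starts that lie inside a peak (y axis, %) by CpG observed/expected of the 300-base window (x axis; the last bar includes higher ratios). Member starts, numbered from the outermost, are drawn above the bars where inside a peak and below where outside, with control promoters in red (Mest start 3, 3 bp from start 2, is not drawn). Airn at 0.19 lies inside and the Igf2 starts at 0.79 and 0.90 outside.

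By annotated gene ends alone, 7 of the 10 members had a peak within 500 bp, against 49.7% of 49595 genes of every kind. These were all 3 noncoding RNAs (45.3% of lncRNA genes) and 4 of the 7 protein-coding members (71.4% of protein-coding genes). Igf2, Snrpn and Impact were those without. By annotated starts, all 8 members with an entry had a peak within 500 bp of at least 1 start, and 6 of the 8 at the outermost start. Over all genes in the promoter table, coding and noncoding, the share with a peak at any start was 59.9%. The difference between the counts comes from the inner starts of Igf2 and Snrpn.

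The windows as a whole were not rich in peaks. They held 2.73 (Kcnq1ot1) to 11.57 (Impact) peaks per 100 kb with a median of 7.69, against 8.69 over all genes, and 8 of the 10 members fell below the latter. Snrpn (5.81), Mest (6.09), H19 (6.82), Igf2r (7.47), Peg3 (7.90), Plagl1 (8.52) and Igf2 (8.62) lay between, and Airn (10.07) above. Kcnq1ot1 stood at the 14.8th percentile of all genes and Impact at the 63.9th. Counting only peaks wider than the genome's median of 578 bp, the order turned, with 4.33 for members and 4.25 for all genes.

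**Figure D5:**
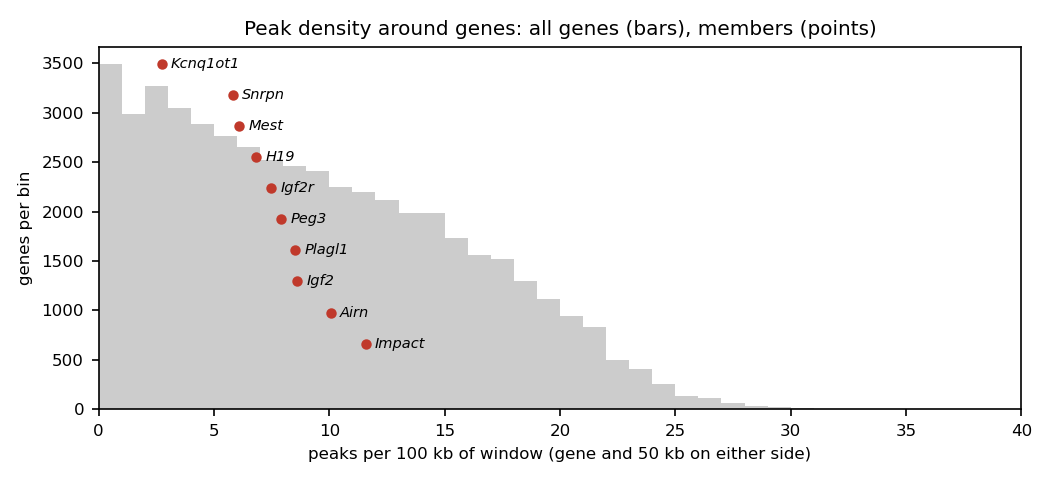
Grey bars give the number of genes by peaks per 100 kb of gene and 50 kb on either side (x axis; 44 genes above the axis range are not drawn). Red points are the 10 members, and their height carries no value. They run from 2.73 (Kcnq1ot1) to 11.57 (Impact).

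Member peaks were wider than the genome's, with a median of 678 bp against 578 bp. The 578 bp is over all peaks and not over peaks in the windows of all genes. Member peaks also include the 6 control promoter peaks, so the difference is not read as a property of the members. Of the 125, 23 (18.4%) lay within 500 bp of an annotated end or start of some gene, 77 (61.6%) inside genes and 25 (20%) between genes. Over all peaks the shares were 16.4%, 45.8% and 37.8%, so the share at ends or starts was close to that of the genome. Windows drawn around genes favour peaks inside genes, so the other differences are not read as a property of the members. Peaks at least as wide as the Plagl1 control peak, a limit set after the widths were seen, numbered 17 of 125. The limit itself puts the 6 control promoter peaks among them, and without those 11 of 119 (9.24%) remained, beside 6.51% of all peaks. Of the 17, 9 lay away from any annotated end or start. Besides the upstream peak of H19 and the inner ones of Plagl1 and Impact, they were peaks of 2120 bp inside Zim2, 2117 bp inside Snhg14 (the long RNA that runs through Snrpn), 1564 and 1532 bp inside Usp29, and 1606 and 1594 bp between genes near Igf2r and Impact.

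Other genes of imprinted domains were mostly open at an end as well. Of 68 such genes 67 were found in the table (Zfp264 was not), and 56 had a peak within 500 bp of an end. This is 83.6%, against 49.7% of all genes. Of the 58 protein-coding ones 51 did, where the share over all protein-coding genes is 71.4%. The widest were those of Usp29 (the peak shared with Peg3), Peg10 and Sgce, divergent neighbours that share a peak of 2726 bp, and Cdkn1c, a cell cycle inhibitor of the Kcnq1ot1 domain, with 2674 bp. The 11 without included Th, Ins2, Nctc1, Rtl1, Rian, Ddc, Atp10a, Zim2, Peg3os and Slc22a2, with nearest peaks 0.667 kb (Rian) to 6.231 kb (Nctc1) from an end. Of these, Ddc and Atp10a had a peak within 500 bp of an annotated start, of 608 and 1244 bp. By starts, 44 of the 52 listed genes with an entry had such a peak, against 59.9% of all genes in the promoter table. That share is over coding and noncoding genes, and the share over protein-coding genes alone was not computed by starts. Genes known to maintain imprints or H3K9 methylation, all protein-coding, had a peak within 500 bp of an end in 16 of 18 cases. Over all protein-coding genes the share is 71.4%. The widest were at Cbx3 (2532 bp), Ctcf (2506 bp), Trim28 (2246 bp) and Arid4b (2067 bp). Among the 16 are Setdb1, Suv39h1 and Suv39h2, the genes floxed or deleted in this line. For Zfp57, the peak nearest to an end was 0.496 kb away, and a peak of 1158 bp lay within 500 bp of an annotated start. Dnmt1 and Dnmt3l had none at an end, yet each had one at an annotated start, of 1444 and 1185 bp. Genes of these lists often lie side by side and share peaks, so they are not independent. The end peaks of Snurf, Hymai and Usp29 include the control promoter peaks of Snrpn, Plagl1 and Peg3. The count of 56 thus partly repeats the members.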

How the data were processed

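ATAC-seq of 18 libraries was deposited as 1 merged list of 166066 peaks, of which 165744 lay on assembled chromosomes and were used. The deposited values are peak starts and ends in bp on mm10 (the same assembly as GRCm38), and no per-sample column was left unused (0). Trimmomatic 0.36, Bowtie2 2.4.2 and MACS2 2.2.7.1 are named per the submitters' processing notes. The peak threshold, the merging rule, and the handling of duplicates and of the transposase offset are not given in the sources used here. A looser threshold or merging over gaps would add or widen peaks. Gene ends came from a RefSeq table of GRCm38.p6, and starts and sequences from its promoter table. Of the 49997 genes in the RefSeq table, 49595 on chromosomes were used. Left out were 348 taken as lying on scaffolds by their order there, and entries not on an autosome, X or Y. A peak counted when it overlapped a window by 1 bp. No test was made, since a pooled list has no replicates, and values stand beside those of all genes, starts or peaks. Members and lists were chosen with earlier results of these data known. Named genes are the members, their partners, and from the wider lists up to 10 without a peak and the 4 with the widest. Overlap and motif counts were tested on simulated data. Alternatives changed the reach, the end window, the overlap, the peak width and the promoter length. Sequences of peaks were not used here. Versions were pandas 2.3.3, numpy 2.4.6, matplotlib 3.10.9 and Biopython 1.88 (global pairwise alignment of the Snrpn promoters) under Python 3.11.15.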

Additional observations from a re-analysis of the deposited data

How the results depend on the processing

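Of 22 alternatives computed, 18 gave a value within 1.5 times the one reported. Peaks in the member windows numbered 190 with a reach of 100 kb and 71 with peaks above the median width alone, both by construction, and 100 and 123 with a reach of 25 kb and by midpoints. The median density was 4.33 peaks per 100 kb with wide peaks alone, where members stood above all genes (4.25) instead of below, and 7.64 to 8.24 otherwise, below all genes each time. Members with the hexamer fell from 4 to 2 when only the bases before the start were searched, because those of Snrpn and Igf2 reach or lie behind the start, and 9.84% of all genes then held it. By start the count fell from 5 to 3 of 16, with 8.68% of all promoters. Restricting to control promoters, chosen after seeing the data, gave 3. All 10 members had a peak within 2000 bp of an end (62.4% of genes). Within 500 bp, 6 members had one with wide peaks alone (42.5% of genes). No paired analysis was possible because the list holds no value per library, and for the same reason no replicate could be left out.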

Other observations

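The members host 3 microRNA genes, and none of their hairpins lay under a peak. All peaks together cover only 116.8 Mb, and the share over all microRNA genes was not computed, so this is not a trait of the members. The nearest peaks were 1.014 kb from Mir675 in H19, 0.83 kb from Mir483 in Igf2 and 1.699 kb from Mir335 in Mest. Among neighbours in the same domains, Ins2, an insulin gene beside Igf2, was 2.548 kb from a peak. The transporter gene Slc22a3, in the Igf2r domain, had a peak of 1382 bp over its higher end. Zim1, next to Peg3, had 1 of 881 bp over its higher end, and Copg2, which overlaps the end of Mest, 1 of 1358 bp over its higher end.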
